A study of Saccharomyces cerevisiae S288C with 71 samples.

Results

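The RNA of 9 cytosolic heat shock chaperone genes was followed in respiration-deficient budding yeast as it left exponential growth. The genes were HSP26, HSP42, HSP104, HSP82, SSA1, SSA2, SSA3, SSA4 and BTN2, taken by symbol from the 5803 genes of the deposited expression table. All 9 were found, each once. Libraries came from 12 strains of Saccharomyces cerevisiae S288C sampled at 0 h (log phase), 12 h and 16 h, a period that spans the wild-type diauxic shift from glucose fermentation to respiration. The 6 double mutants were coq2d ras2d, coq2d rts1d (rts1dd in its titles), coq2d tco89d, cox4d ras2d, cox4d rts1d and cox4d tco89d. The 5 single mutants were coq2d and cox4d, which lack a working electron transport chain (ETC) and are called ETC mutants here, and ras2d, rts1d and tco89d, and the reference strain was the wild type (wt). COX4 encodes a subunit of cytochrome c oxidase, and the COQ2 product helps to make coenzyme Q. RAS2 encodes a GTPase upstream of adenylate cyclase and protein kinase A, TCO89 a component of the TORC1 kinase complex, and RTS1 one of the regulatory B subunits of protein phosphatase 2A. Loss of RAS2, RTS1 or TCO89 suppresses the death of starved ETC mutants, per the labels, so these are called suppressor deletions. All strains were grown at 30 C in the same synthetic medium with ammonium and 2% glucose, with no heat treatment named in the labels.

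Heat shock proteins of the cytosol keep unfolding proteins soluble, refold them, or gather them into deposits. Small heat shock proteins (HSP26, HSP42) bind unfolding proteins, Hsp104 pulls proteins out of aggregates together with Hsp70 (SSA1 to SSA4), and Hsp90 (HSP82) matures signalling proteins. Btn2 sorts misfolded proteins into deposits next to Hsp42. Most of these genes are known targets of the heat shock factor Hsf1, which binds heat shock elements, of the general stress factors Msn2 and Msn4, which bind stress response elements, or of both. Protein kinase A, which acts downstream of Ras2, restrains Msn2 and Msn4, and most of these chaperone genes are known to be induced as yeast runs out of glucose.

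RNA abundance was given as TPM, a length-corrected share of each library. There were 71 libraries in 36 groups of strain and time. In 35 groups there were 2 libraries, and cox4d rts1d at 16 h had 1. The labels call replicates technical, so errors and p-values cover the spread between such libraries only, and the lone library was assumed to vary like the others. Paired values below are the 2 libraries of a group, lower value first. Across genes, Pearson's r between the libraries of a pair was 0.985 to 0.998, and the widest gap within a pair in any of the 9 genes was 0.74 on the log2 scale (SSA3, coq2d tco89d at 12 h). RNA of each deleted gene was lower in every library of its deletion strains than in any other library, but it was not near 0 in all of them. COX4 stood at 0.115 to 72.3 TPM in libraries of cox4d strains, against 283 to 3463 TPM in the others, and the value of 72.3 TPM belonged to 1 library of cox4d tco89d at 16 h. For COQ2 the ranges were 0.1 to 2.95 TPM with the deletion and 5.55 to 60.2 TPM without it. For RAS2 they were 0.1 to 2.32 and 67.1 to 255 TPM, for RTS1 0.1 to 1.97 and 18.9 to 54.8 TPM, and for TCO89 0.1 to 1.36 and 6.29 to 20.8 TPM. These ranges pool the times. At 12 h 1 library of coq2d rts1d held 2.95 TPM of COQ2 and 1 of coq2d held 2.27 TPM, against 10.9 and 11.0 TPM in wt. For TCO89, 1 library of tco89d at 12 h held 1.36 TPM, against 17.6 and 17.8 TPM in wt. Because TPM is a share of RNA, it gives neither the amount of RNA per cell nor the number of living cells. A lower TPM can also follow from more RNA of other genes. A change in every cell cannot be told apart from a larger change in part of the cells.

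The promoters of the 9 genes carry the elements named above in different combinations. In the S. cerevisiae R64 (sacCer3) genome of RefSeq, a heat shock element was searched as GAANNTTC or TTCNNGAA (2 alternating units) and, more strictly, with 1 alternating unit more (GAANNTTCNNGAA or TTCNNGAANNTTC). The stress response element was searched as AGGGG on both strands. Overlapping matches were counted, and a match describes the letters only. In windows of 250 bases before to 50 bases after the start codon, the 2-unit element stood in 5 of 9 genes, against 22.6% of 6001 promoters of the genome. The 3-unit element stood in 2 of 9 (HSP42 and SSA2), against 0.783% of promoters, and the stress response element in 5 of 9, against 21.6%. With 600 bases before the start codon, a window chosen after the shorter one had been seen, the counts were 8 of 9 against 43.4%, 5 of 9 against 1.73%, and 7 of 9 against 41.8% of 5999 promoters. SSA3 held none of the 3 in either window, and SSA2 held no stress response element. Stretches with matches are printed below, for 7 of the genes. They are shown so that SSA2, which fell from 0 to 12 h in 8 of 12 strains, can be read beside HSP42, HSP104 and SSA1, which rose in most. SSA3, with none of the motifs, rose in all 12, and a link between motifs and RNA was not tested. The SSA1 stretch ends before its 2 stress response elements, at -211 to -207 and -160 to -156 from the start codon. SSA4 and BTN2 also held stress response elements outside their stretches. HSP82 is not printed, though its 600 bases held 2 matches to the 2-unit heat shock element and 2 to the stress response element. Each stretch is written 5′ to 3′ on the coding strand of its gene, with heat shock element and stress response element letters in capitals.
HSP26, chrII:381545-381714, plus strand: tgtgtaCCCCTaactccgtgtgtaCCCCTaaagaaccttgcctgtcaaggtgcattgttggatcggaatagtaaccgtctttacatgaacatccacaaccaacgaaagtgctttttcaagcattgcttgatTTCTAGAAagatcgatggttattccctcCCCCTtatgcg
HSP42, chrIV:806371-806450, plus strand: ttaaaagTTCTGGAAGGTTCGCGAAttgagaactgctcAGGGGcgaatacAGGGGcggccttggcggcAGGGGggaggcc
HSP104, chrXII:88313-88462, plus strand: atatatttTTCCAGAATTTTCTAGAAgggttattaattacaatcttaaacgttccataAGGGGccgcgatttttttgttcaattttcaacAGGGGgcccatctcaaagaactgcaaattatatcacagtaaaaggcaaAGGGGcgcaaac
SSA1, chrI:141672-141801, minus strand: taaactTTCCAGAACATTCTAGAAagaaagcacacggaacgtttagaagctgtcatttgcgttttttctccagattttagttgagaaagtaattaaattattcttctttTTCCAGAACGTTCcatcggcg
SSA2, chrXII:97656-97735, minus strand: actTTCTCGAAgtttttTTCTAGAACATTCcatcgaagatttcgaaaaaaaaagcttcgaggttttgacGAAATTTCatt
SSA4, chrV:364329-364418, plus strand: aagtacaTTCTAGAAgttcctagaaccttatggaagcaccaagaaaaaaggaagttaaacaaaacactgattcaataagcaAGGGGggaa
BTN2, chrVII:772104-772133, plus strand: ttttttTTCTAGAAAGTTCCGGAAaattgc

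**Figure D1:**
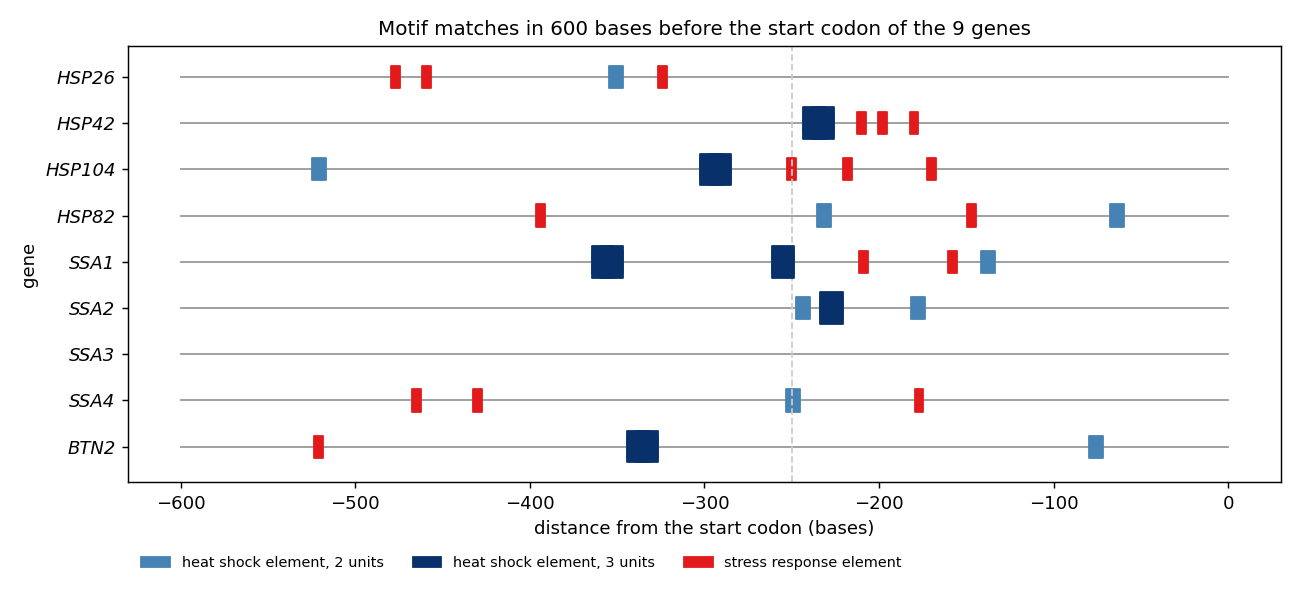
Motif matches in the 600 bases before the start codon of each of the 9 genes (horizontal axis, distance from the start codon in bases; 1 row per gene). Light blue boxes mark 2-unit heat shock elements, dark blue boxes 3-unit elements and red boxes stress response elements, and the dashed line marks 250 bases. The row of SSA3 is empty, and that of SSA2 has blue boxes only.

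All 9 genes are single-exon genes: HSP26 (YBR072W, chrII:382030-382674), HSP42 (YDR171W, chrIV:806621-807748), HSP104 (YLL026W, chrXII:88623-91349) and HSP82 (YPL240C, chrXVI:96496-98625, minus strand). The Hsp70 genes are SSA1 (YAL005C, chrI:139503-141431, minus strand), SSA2 (YLL024C, chrXII:95566-97485, minus strand), SSA3 (YBL075C, chrII:84499-86448, minus strand) and SSA4 (YER103W, chrV:364589-366517), and BTN2 is YGR142W (chrVII:772454-773686). No other RefSeq gene overlapped any of them. Some have near-copies. SSA1 and SSA2 were 96.4% identical over the whole coding length, with a shared run of 383 bases, so reads could have been split between them either way. HSP82 was 91.7% identical to HSC82, its constitutively expressed paralog, with a longest shared run of 113 bases. SSA3 and SSA4 were 78.1% identical with a longest shared run of 17 bases.

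As cultures passed from log phase to 12 h, most of the 9 genes rose in every strain. A gene is said to have risen or fallen when it changed at least 2-fold on the log2(TPM + 1) scale with an adjusted p under 0.05 (limma, Benjamini-Hochberg over the 5766 genes tested in each comparison), and lower or higher between strains is used in the same sense. All 9 genes passed the filter on low values. Fold changes are on the TPM + 1 scale and errors are standard errors of the fit. In wt, 8 rose at 12 h, where 17.7% of all genes tested rose, and the ninth, SSA2, fell, where 27.7% of all genes fell. The same 8 rose in cox4d (16.9% of all genes), ras2d (9.69%), rts1d (11.5%), tco89d (15.5%), coq2d ras2d (7.93%) and coq2d rts1d (11.5%). They also rose in coq2d tco89d (12.7%), cox4d rts1d (12.4%) and cox4d tco89d (12.9%). In coq2d 7 rose (14.6%) and SSA1 did not pass, and in cox4d ras2d 6 rose (7.94%) and HSP42 and SSA1 did not pass. SSA2 also fell in coq2d (35.2% of all genes fell), cox4d (30.7%), rts1d (28.3%), coq2d rts1d (27.9%), cox4d ras2d (18.1%), cox4d rts1d (31.3%) and cox4d tco89d (33.3%). Together the 9 genes made up 0.16% to 0.472% of a library at 0 h, 2.25% to 3.99% at 12 h and 1.23% to 4.44% at 16 h. With median-ratio scaling in place of the deposited TPM, between 12.3% and 23.6% of all genes rose in these 12 comparisons. Between 9.02% and 24.1% fell, and SSA2 in cox4d ras2d no longer passed. On that scale SSA1 in coq2d, and HSP42 and SSA1 in cox4d ras2d, did pass, so the same 8 genes rose in every strain.

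**Figure D2:**
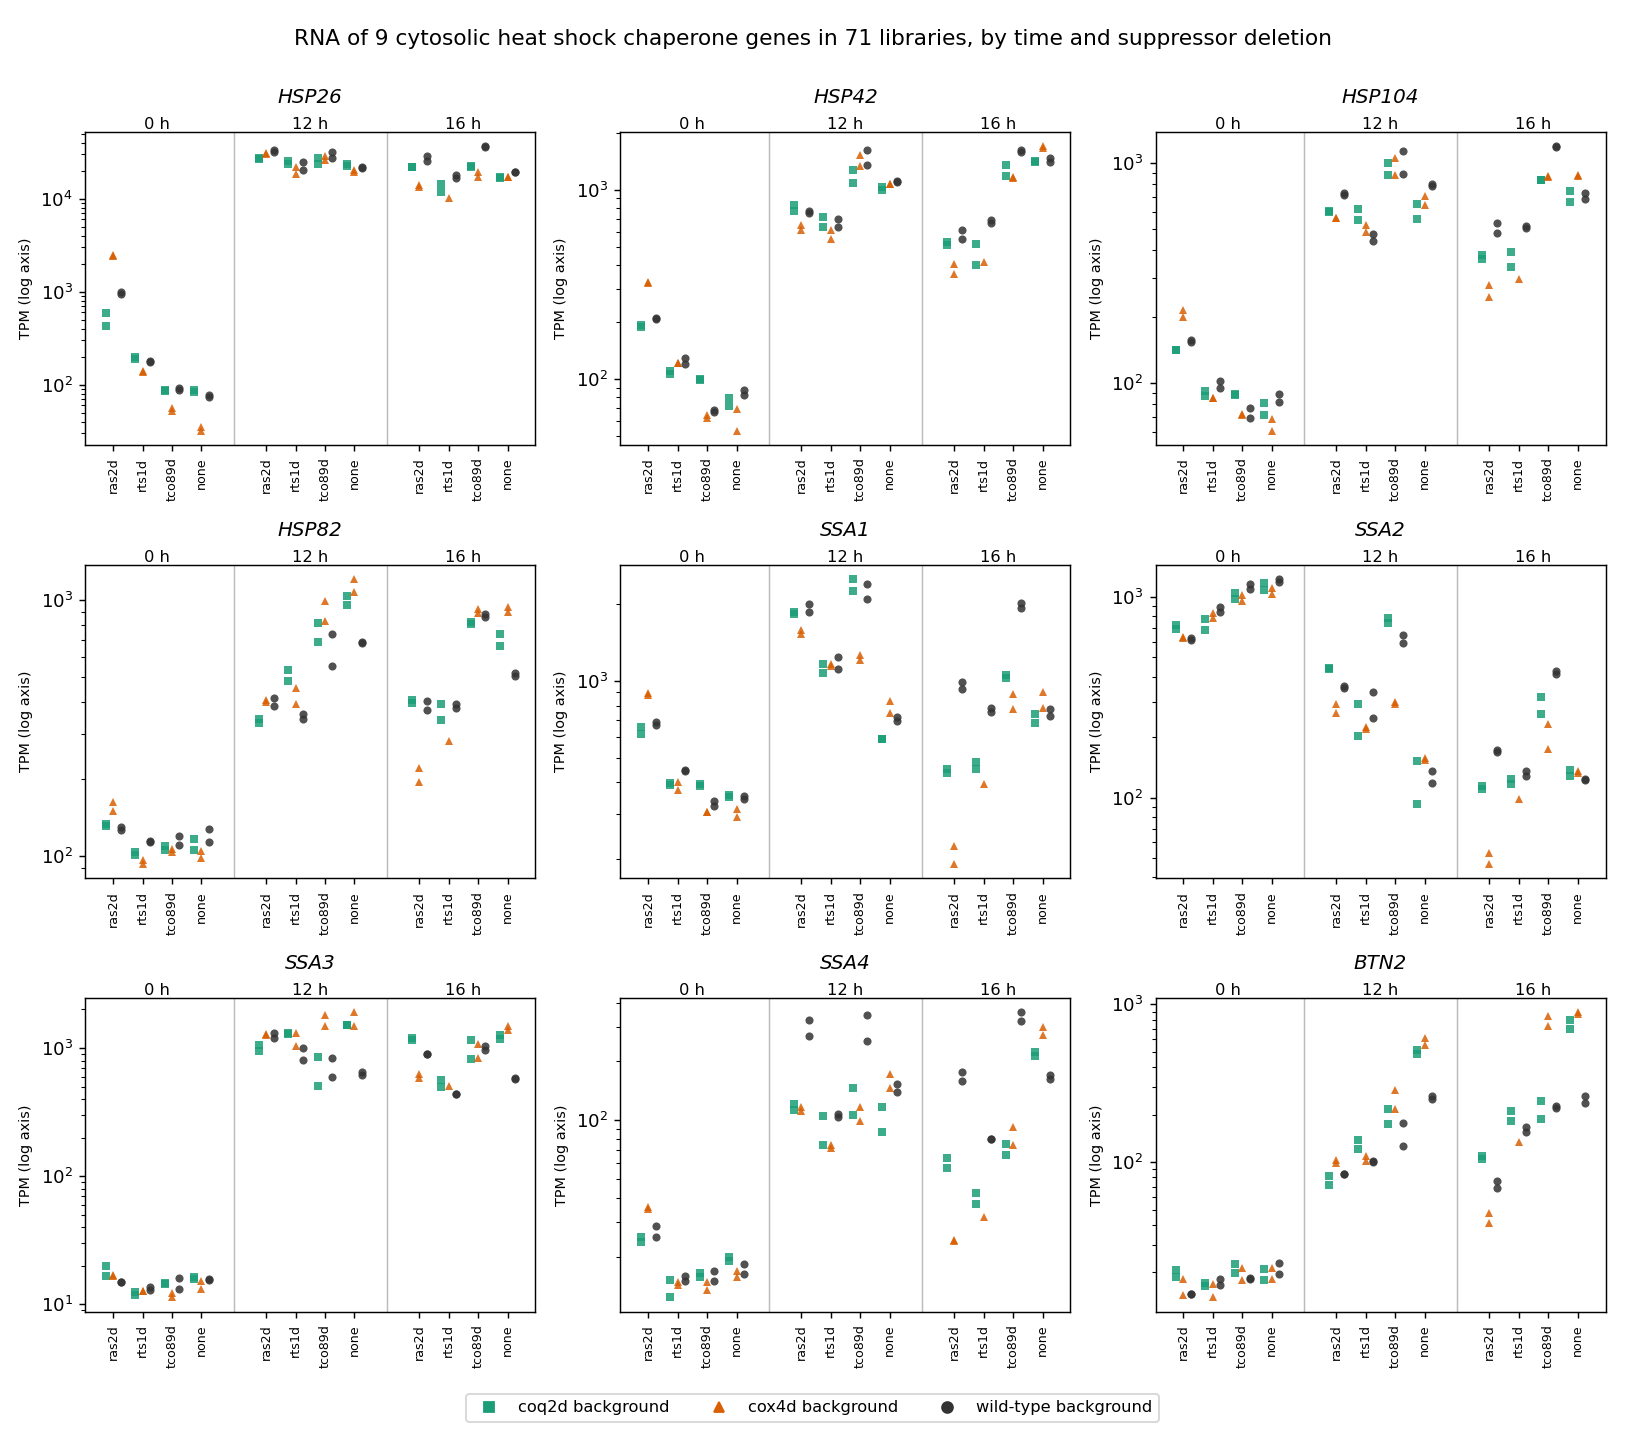
TPM of the 9 genes in all 71 libraries (vertical log axes, 1 panel per gene), in blocks of 0, 12 and 16 h and, within a block, by suppressor deletion (horizontal axis; none means no suppressor deletion). Squares are coq2d strains, triangles cox4d strains and circles strains with both COQ2 and COX4. SSA2 is highest at 0 h in every strain, while the other 8 genes are lowest at 0 h, except that at 16 h SSA1 lies at or below its 0 h level in coq2d ras2d, cox4d ras2d and cox4d rts1d, and SSA4 in cox4d ras2d.

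Between 12 and 16 h SSA1 and SSA2 fell in 5 of the 6 double mutants. No member passed in wt, cox4d or tco89d, and in coq2d SSA4 alone rose (1.91% of all genes rose). SSA1 and SSA2 fell in ras2d (1.8% of all genes fell), coq2d ras2d (4.63%) and coq2d tco89d (3.87%), and SSA2 and SSA3 fell in rts1d (1.18%). All 4 SSA genes fell in coq2d rts1d (4.93%) and in cox4d rts1d (6.26%). In cox4d ras2d 7 of 9 genes fell, all but HSP42 and HSP82, where 12.3% of all genes fell. BTN2 rose in cox4d tco89d (4.13% of all genes rose). Leaving out 1 library took some of these below 2-fold: SSA4 in coq2d (0.89 on the log2 scale), SSA1 in ras2d (-0.96), SSA2 and SSA3 in rts1d (-0.92 and -0.86), and SSA2 and SSA4 in coq2d rts1d (-0.74 and -0.90). With quantile normalization SSA2 in ras2d (-0.997), SSA1 in coq2d tco89d (-0.97) and SSA3 in cox4d ras2d (-0.92) missed it too. With median-ratio scaling HSP26 was also lower at 16 h in coq2d rts1d (7.67% of all genes fell) and, with HSP104, in cox4d rts1d (12.3%), SSA4 in coq2d ras2d (5.97%) and SSA1 in rts1d (5.36%), and SSA4 was higher in cox4d (3.5% rose).

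Against wt, the single mutants changed few of the 9 genes, and which ones differed by deletion. At 0 h HSP26 was lower in cox4d (0.572% of all genes were lower), HSP26 and HSP42 were higher in ras2d (3.59% higher), and HSP26 was higher in rts1d (1.4% higher). At 12 h SSA3 was higher in coq2d (0.295%), and SSA3 and BTN2 were higher in cox4d (0.832%). SSA1, SSA2 and SSA4 were higher at 12 h in ras2d (5.01%) and in tco89d (7.08%), and SSA2 was higher in rts1d (3.9%). BTN2 was lower at 12 h in ras2d (11.9% lower) and rts1d (14.2% lower). At 16 h SSA3 and BTN2 were higher in coq2d (1.35% higher) and in cox4d (1.99% higher). HSP42 and BTN2 were lower in ras2d (7.75% lower), HSP42 and SSA4 were lower in rts1d (4.53% lower), and SSA1, SSA2 and SSA4 were higher in tco89d (5.6% higher). All 5 single mutants were compared with the same wt libraries. Leaving out 1 library took SSA4 below 2-fold in ras2d at 12 h (0.88 on the log2 scale) and in tco89d at 12 and 16 h (0.80 and 0.96), and SSA2 in rts1d at 12 h (0.98). With median-ratio scaling SSA4 in tco89d was at 0.88 and 0.86 at these times and BTN2 in rts1d at 12 h at -0.99. That scaling put 5.34% of all genes higher and 3.26% lower in coq2d against wt at 16 h. In cox4d it put 5.17% higher and 3.52% lower, and HSP82 and SSA4 then passed as well. It also made SSA1 higher in ras2d at 0 h (4.04% of all genes higher). At 12 h it made BTN2 higher in coq2d (1.02%), SSA3 in ras2d (7.79%) and SSA1 in rts1d (8.29%).

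In ETC mutants that also lacked RAS2 or RTS1, HSP26 was higher in log phase, and at 16 h SSA4, HSP42 and BTN2 were lower than in the ETC mutant alone. At 0 h HSP26 and HSP42 were higher in coq2d ras2d than in coq2d (3.49% of all genes were higher), and HSP26 was higher in coq2d rts1d (2.2%) and in cox4d rts1d than in cox4d (1.94%). In cox4d ras2d, HSP26, HSP42, HSP104, SSA1 and SSA4 were higher than in cox4d (6.04%), SSA4 missing 2-fold with a pseudocount of 5 (0.92). At 12 h SSA1 and SSA2 were higher in coq2d ras2d (13.8%) and coq2d tco89d (21.2%) than in coq2d, and SSA2 in coq2d rts1d (7.01%). In coq2d tco89d these 2 of 9 genes were near the share of all genes, which was 6.99% with median-ratio scaling. With that scaling SSA1 was also higher in coq2d rts1d (8.55% of all genes higher) and cox4d ras2d (9.66%), and SSA2 in cox4d tco89d (3.47%). BTN2 was lower in all 6 double mutants at 12 h. With it went HSP82 in coq2d ras2d (7.96% of all genes were lower) and cox4d ras2d (7.32%), SSA3 in coq2d tco89d (2.93%), and HSP82 and SSA4 in cox4d rts1d (12.2%). In coq2d rts1d (8%) and cox4d tco89d (4.23%) no other member was lower at that time. Without 1 library, SSA2 in coq2d rts1d (0.67), SSA3 in coq2d tco89d (-0.83) and SSA4 in cox4d rts1d (-0.98, and -0.73 with median-ratio scaling) missed 2-fold on the log2 scale.

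At 16 h 8 of 9 genes were lower in cox4d ras2d than in cox4d, all but HSP26, where 7.15% of all genes were lower. The median log2 difference of the 9 genes was -2.01, and that of all genes 0.11. In cox4d rts1d 7 were lower, all but HSP26 and SSA2, where 5.03% of all genes were lower, and the medians were -1.56 and 0.15. In cox4d tco89d SSA4 alone was lower (9.16%; log2 difference -1.92 without the library with COX4 RNA). Against coq2d, HSP42, SSA4 and BTN2 were lower in coq2d ras2d (5.71%), these and SSA3 in coq2d rts1d (3.12%), and SSA4 and BTN2 in coq2d tco89d (3.21%), in which SSA2 was higher (16.4% of all genes were higher). Without 1 library SSA2 in coq2d tco89d was at 0.97 (0.65 with median-ratio scaling) and SSA1 in cox4d rts1d at -0.99. With median-ratio scaling 6 members were lower in coq2d ras2d, with HSP104, HSP82 and SSA1 added (11.9% of all genes lower), and 6 in coq2d rts1d, with HSP104 and HSP82 added (5.48%). The 3 double mutants of each ETC gene share the libraries of their single mutant.

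**Figure D3:**
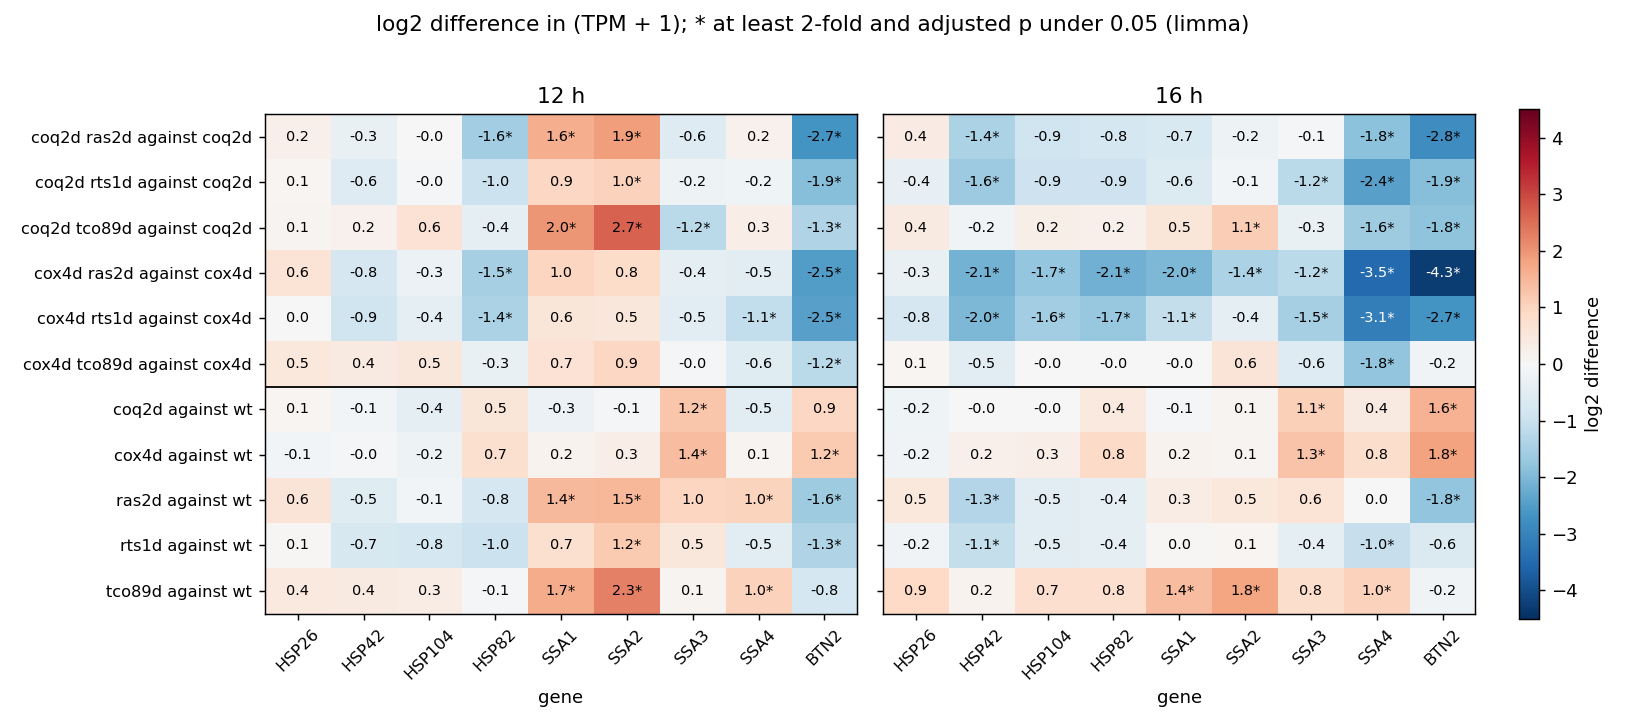
Log2 differences in TPM + 1 of the 9 genes (columns) at 12 h (left) and 16 h (right), for each double mutant against its ETC single mutant (rows above the line) and each single mutant against wt (rows below it). Red is higher and blue lower in the first-named strain, and an asterisk marks at least 2-fold with an adjusted p under 0.05. The darkest blue cells are BTN2 and SSA4 in cox4d ras2d and SSA4 in cox4d rts1d, against cox4d at 16 h.

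HSP26 encodes a small heat shock protein that holds unfolding proteins, and it is known as a transcript of stationary-phase yeast. In wt it stood at 73.6 and 77.1 TPM at 0 h, 21528 and 21758 TPM at 12 h and 19215 and 19469.9 TPM at 16 h. The 12 h level was 284-fold that at 0 h (log2 difference 8.15 ± 0.10, SE, n = 2 each; limma adjusted p = 1.7e-43).

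In log phase HSP26 differed more between strains than any other member, by 72-fold between the highest and the lowest group mean. It stood at 2399 and 2466 TPM in cox4d ras2d, 427 and 591 TPM in coq2d ras2d and 942 and 992 TPM in ras2d. The rts1d strains came next, with 191 and 199 TPM in coq2d rts1d, 177 and 181 TPM in rts1d and 137 and 142 TPM in cox4d rts1d. In the tco89d strains the values were 88.9 and 91.6 TPM in tco89d, 85.3 and 88.8 TPM in coq2d tco89d and 52.6 and 56.1 TPM in cox4d tco89d. Every strain without RAS2 was thus above every strain with it, with no overlap. In coq2d HSP26 stood at 82.7 and 87.3 TPM and in cox4d at 32.1 and 35.5 TPM, cox4d being below all other strains. The difference of cox4d ras2d from cox4d was 6.13 ± 0.10 on the log2 scale (70.0-fold, adjusted p = 2.1e-38). That of ras2d from wt was 3.66 ± 0.10 (adjusted p = 2.1e-30), that of rts1d from wt 1.24 ± 0.10 (2.5e-13), and that of cox4d from wt -1.13 ± 0.10 (1.8e-11).

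At 12 h the spread between strains had narrowed to 1.64-fold, from a mean of 19795 TPM in cox4d to 32427 TPM in ras2d, and no strain differed 2-fold from its comparison strain. At 16 h the highest pair was 35701 and 36939 TPM in tco89d, and the lowest value was 10193 TPM in the single library of cox4d rts1d. In cox4d ras2d HSP26 had fallen to 13425 and 14065 TPM at 16 h, against 30103 and 30645 TPM at 12 h (log2 difference -1.14 ± 0.10, adjusted p = 3.7e-13). On the deposited scale HSP26 missed 2-fold between these times in cox4d rts1d (-0.98) and coq2d rts1d (-0.91), both of which passed with median-ratio scaling.

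HSP42 encodes the small heat shock protein that gathers misfolded proteins into cytosolic deposits. Its wt levels were 81.9 and 87.5 TPM at 0 h, 1102 and 1118 TPM at 12 h and 1395 and 1468 TPM at 16 h, and the 12 h level was 13.0-fold that at 0 h (adjusted p = 1.8e-31). In log phase the strains lacking RAS2 were again highest, with 319.9 and 327 TPM in cox4d ras2d, 187 and 192 TPM in coq2d ras2d and 208 and 209.9 TPM in ras2d. The other 9 strains had group means between 61.2 TPM (cox4d) and 124 TPM (rts1d).

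The order turned round by 16 h. At that time HSP42 stood at 357 and 404 TPM in cox4d ras2d, 512 and 526 TPM in coq2d ras2d and 546 and 615 TPM in ras2d. With RTS1 deleted it stood at 412 TPM in cox4d rts1d, 399.8 and 516 TPM in coq2d rts1d and 670.1 and 690.2 TPM in rts1d. The other 6 strains were all higher, without overlap. They held 1160.0 and 1172 TPM in cox4d tco89d, 1176 and 1348 TPM in coq2d tco89d, 1574 and 1624 TPM in tco89d, 1396 and 1422 TPM in coq2d, 1655 and 1706 TPM in cox4d and the wt values above. The log2 difference was -2.14 ± 0.10 for cox4d ras2d against cox4d (adjusted p = 1.5e-21) and -2.02 ± 0.12 for cox4d rts1d against cox4d (1.4e-17). Against coq2d it was -1.44 ± 0.10 for coq2d ras2d and -1.63 ± 0.10 for coq2d rts1d, and against wt -1.30 ± 0.10 for ras2d and -1.07 ± 0.10 for rts1d. None of the 6 interaction terms for HSP42 passed at 16 h.

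HSP104 encodes the hexameric disaggregase that threads aggregated proteins through its central pore. Wild-type libraries held 82.3 and 88.9 TPM at 0 h, 787 and 804 TPM at 12 h and 686 and 728 TPM at 16 h, and the 12 h level was 9.21-fold that at 0 h (adjusted p = 6.7e-30). No single mutant differed 2-fold from wt in HSP104 at any time. In double mutants it did. At 0 h cox4d ras2d held 200.1 and 214 TPM, against 60.8 and 68.4 TPM in cox4d (log2 difference 1.67 ± 0.10, adjusted p = 5.5e-19). At 16 h cox4d ras2d held 245 and 279 TPM and cox4d rts1d 295 TPM, against 872 and 877 TPM in cox4d (log2 differences -1.74 ± 0.10 and -1.56 ± 0.12). HSP104 was higher in cox4d ras2d than in cox4d in log phase and lower at 16 h. At 16 h coq2d ras2d held 364 and 382 TPM and coq2d rts1d 337 and 394 TPM, against 661 and 743 TPM in coq2d, differences of -0.91 and -0.94 that missed the 2-fold threshold without overlap between groups and passed it with median-ratio scaling. The highest 16 h level was in tco89d, at 1176 and 1193 TPM.

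HSP82 encodes the stress-inducible Hsp90. The wt level was 113 and 127 TPM at 0 h, 681 and 685 TPM at 12 h and 505 and 520.4 TPM at 16 h. At 12 h the group means were highest in the ETC mutants, with 1073 and 1209 TPM in cox4d and 959.5 and 1036 TPM in coq2d, both under 2-fold above wt. HSP82 in cox4d tco89d, at 832 and 996 TPM, overlapped that in coq2d. In the double mutants lacking RAS2 or RTS1 it stood at 399 and 408 TPM in cox4d ras2d, 330.0 and 342 TPM in coq2d ras2d, 394 and 454 TPM in cox4d rts1d and 482 and 534 TPM in coq2d rts1d, all below the ETC mutants, beside 386 and 415 TPM in ras2d and 345 and 358 TPM in rts1d. Against the ETC mutants, the log2 differences were -1.50 ± 0.10, -1.57 ± 0.10 and -1.43 ± 0.10 in the first 3 of these, and -0.97 ± 0.10 in coq2d rts1d, which missed the threshold. At 16 h cox4d ras2d had the lowest pair, 195 and 220.0 TPM, followed by the 283 TPM of cox4d rts1d, against 901 and 944 TPM in cox4d (log2 differences -2.15 ± 0.10 and -1.70 ± 0.12). In cox4d tco89d it stood at 889 and 924 TPM and overlapped cox4d. HSC82, the constitutive Hsp90 gene, did not pass in wt at 12 h against 0 h (means of 354 and 664 TPM) and passed against wt at 16 h in tco89d (684 TPM, against 250.4 TPM in wt). Since the 2 genes share long runs, part of either value may belong to the other.

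SSA1 and SSA2 encode the Hsp70 chaperones that yeast uses during growth, and their shares changed places. In wt SSA1 stood at 345 and 355 TPM at 0 h, 697 and 719.9 TPM at 12 h and 731 and 774 TPM at 16 h. SSA2 stood at 1182 and 1227 TPM at 0 h, 118 and 135 TPM at 12 h and 122 and 124 TPM at 16 h. SSA2 thus fell 9.45-fold by 12 h (log2 difference -3.24 ± 0.14, adjusted p = 3.1e-24), while SSA1 rose 2.02-fold (log2 difference 1.01 ± 0.08), which was under 2-fold without one wt library of 0 h (0.995) or one of 12 h (0.991). Because reads cannot always be told apart between them, their sum and shares were also read. The sum was 1537 and 1573 TPM at 0 h, 815 and 855 TPM at 12 h and 853 and 897 TPM at 16 h, and SSA2 made up 76.9% and 78.0% of it at 0 h, 14.5% and 15.8% at 12 h and 13.8% and 14.3% at 16 h. In log phase the SSA2 share was lower in every strain lacking RAS2, at 41.0% and 41.8% in cox4d ras2d, 46.9% and 48.1% in ras2d and 52.4% and 52.8% in coq2d ras2d. In strains lacking RTS1 it was 63.6% and 66.2% in coq2d rts1d, 65.5% and 66.8% in rts1d and 67.4% and 67.6% in cox4d rts1d. The remaining strains lay between 71.3% and 79.0%, above all of these. At 12 and 16 h every library had an SSA2 share between 13.1% and 25.0%.

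**Figure D4:**
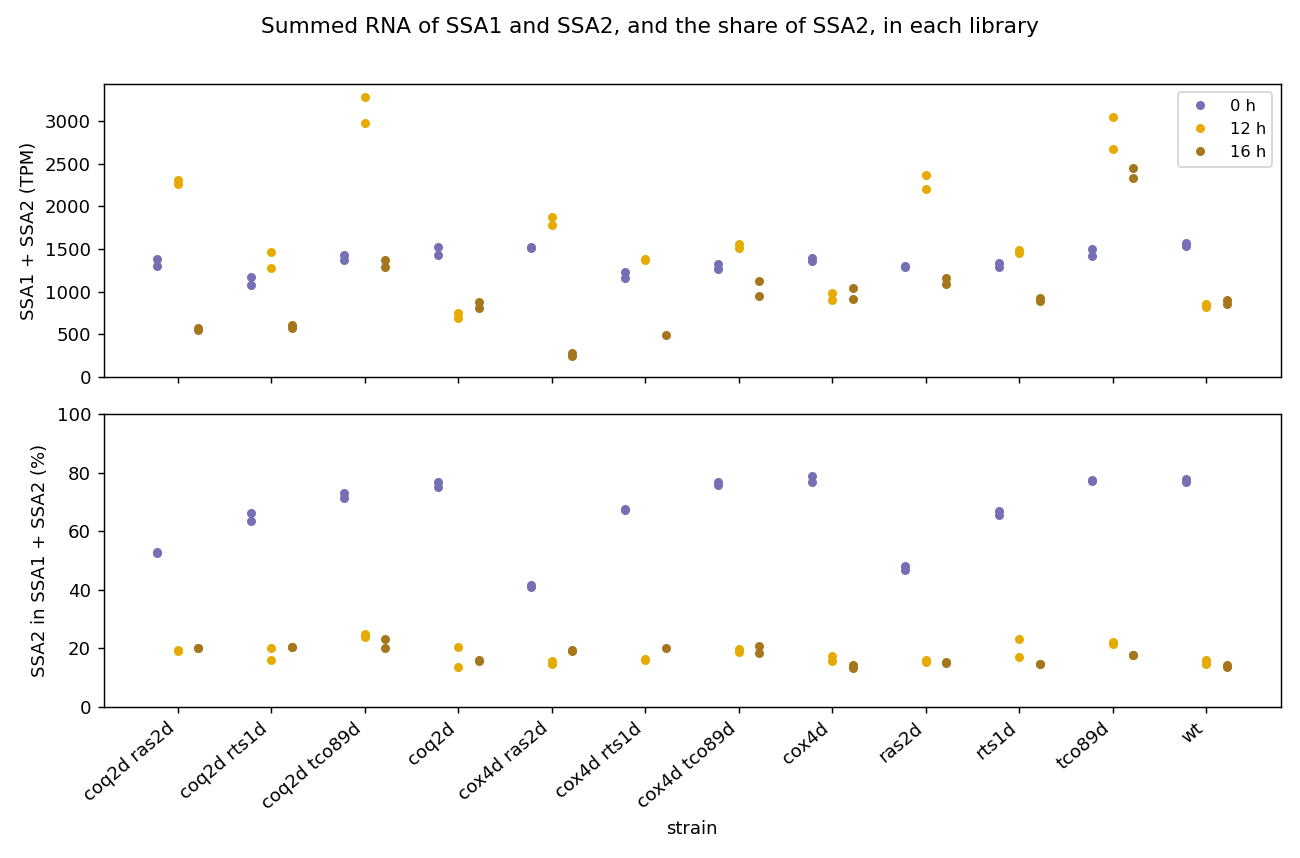
Summed TPM of SSA1 and SSA2 (upper panel) and the share of SSA2 in that sum in percent (lower panel), 1 point per library, for each strain (horizontal axis) at 0, 12 and 16 h (colours). The share is 41.0% to 79.0% at 0 h and at most 25.0% at the later times, and the sum is lowest in cox4d ras2d at 16 h.

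After log phase the SSA1 and SSA2 sum parted between strains. At 12 h it was 2982 and 3284 TPM in coq2d tco89d, 2674 and 3051 TPM in tco89d, 2270.2 and 2309 TPM in coq2d ras2d and 2211 and 2365 TPM in ras2d, against 685 and 746 TPM in coq2d and 815 and 855 TPM in wt. At 16 h it was still 2334 and 2447 TPM in tco89d. In coq2d ras2d it was 545 and 567 TPM, and in cox4d ras2d 238 and 278 TPM, against 915 and 1038 TPM in cox4d. SSA1 itself stood at 2082 and 2401 TPM in tco89d and 1859.7 and 2005 TPM in ras2d at 12 h, both without overlap with wt (log2 differences 1.66 ± 0.08 and 1.45 ± 0.08). Between 12 and 16 h it fell to 192 and 225 TPM, against 1518 and 1581 TPM at 12 h, in cox4d ras2d (log2 difference -2.89 ± 0.08, adjusted p = 8.0e-30). It also fell in coq2d ras2d (-2.06), cox4d rts1d (-1.55), coq2d rts1d (-1.26), coq2d tco89d (-1.18) and ras2d (-1.01), log2 differences in each case. The SSA1 call in ras2d is the one that leaving out a library took below 2-fold.

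SSA3 encodes an Hsp70 that is nearly silent in growing cells and known to be induced in stationary phase. At 0 h it lay between 11.4 and 19.8 TPM in all 12 strains. The wt libraries held 15.5 and 15.8 TPM at 0 h, 620.2 and 656 TPM at 12 h and 576 and 586 TPM at 16 h, a 38.4-fold difference between 12 and 0 h. It was higher in the ETC mutants, with 1515 and 1519 TPM in coq2d and 1488 and 1895 TPM in cox4d at 12 h, and 1186 and 1263 TPM in coq2d and 1381 and 1474 TPM in cox4d at 16 h. The log2 differences from wt were 1.25 ± 0.16 and 1.40 ± 0.16 at 12 h and 1.07 ± 0.16 and 1.30 ± 0.16 at 16 h (adjusted p = 1.8e-08, 1.8e-09, 1.5e-07 and 3.3e-09). All 4 were past the threshold under every setting tried. At 12 h wt had the lowest group mean of the 12 strains (638 TPM). The suppressor single mutants then held 1194 and 1318 TPM (ras2d), 800 and 1007 TPM (rts1d) and 590 and 837 TPM (tco89d). At 16 h they held 896 and 902 TPM, 440.5 and 441.4 TPM, and 961 and 1036 TPM, in the same order. None of these passed against wt on the deposited scale, and ras2d at 12 h passed with median-ratio scaling. Of the double mutants at 16 h, those lacking RTS1 were lowest, with 494 and 566 TPM in coq2d rts1d and 504 TPM in cox4d rts1d. SSA3 stood at 586 and 632 TPM in cox4d ras2d, also below cox4d (log2 difference -1.23 ± 0.16). In coq2d ras2d, at 1149 and 1192 TPM, it was close to coq2d (log2 difference -0.06).

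SSA4 encodes a strongly heat-inducible Hsp70. Its level in wt was 16.4 and 18.3 TPM at 0 h, 139.7 and 152 TPM at 12 h and 162 and 169.8 TPM at 16 h (8.02-fold at 12 h against 0 h). At 16 h every one of the 6 double mutants was below both of its parent strains, with no overlap between libraries. SSA4 stood at 57.1 and 63.7 TPM in coq2d ras2d, against 213 and 225 TPM in coq2d and 159 and 176 TPM in ras2d. In coq2d rts1d it stood at 37.3 and 42.5 TPM, against 79.8 and 80.3 TPM in rts1d. In coq2d tco89d it stood at 66.5 and 75.4 TPM, against 323 and 356 TPM in tco89d. The cox4d strains showed the same order. The values were 24.0 and 24.4 TPM in cox4d ras2d, 31.9 TPM in cox4d rts1d and 74.6 and 91.8 TPM in cox4d tco89d, against 272 and 299 TPM in cox4d. Against the ETC mutant, the log2 differences were -1.84 ± 0.14, -2.43 ± 0.14 and -1.62 ± 0.14 in the coq2d strains (ras2d, rts1d and tco89d in that order). In the cox4d strains they were -3.51 ± 0.14 (adjusted p = 2.3e-23), -3.12 ± 0.17 and -1.77 ± 0.14. At 12 h the 6 double mutants lay between 72.2 and 147 TPM, and only cox4d rts1d was lower than its ETC mutant.

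BTN2 encodes the factor that sorts misfolded proteins into deposits. Of the 9 genes it had the largest difference from wt in both ETC mutants at 16 h. At 0 h it lay between 13.9 and 22.9 TPM in all strains. In wt it stood at 253 and 263 TPM at 12 h and 238 and 262 TPM at 16 h. In cox4d it reached 555 and 613 TPM at 12 h and 870.0 and 888 TPM at 16 h, and in coq2d 483 and 511 TPM at 12 h and 703 and 796 TPM at 16 h. At 16 h the log2 difference from wt was 1.81 ± 0.14 in cox4d (adjusted p = 1.2e-14) and 1.58 ± 0.14 in coq2d (4.8e-13).

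In 5 of the 6 double mutants BTN2 was below the upper wt value at 16 h. It stood at 41.1 and 47.7 TPM in cox4d ras2d, 105 and 109 TPM in coq2d ras2d, 134 TPM in cox4d rts1d, 182 and 209.9 TPM in coq2d rts1d and 188 and 243 TPM in coq2d tco89d. The exception was cox4d tco89d, at 728 and 848 TPM, below cox4d without overlap but within 2-fold, after 217 and 288 TPM at 12 h. One of its 2 libraries at 16 h is the one with COX4 RNA. The rise of BTN2 in that strain was 1.65 on the log2 scale with that library and 1.76 without it. The 16 h log2 difference from the ETC mutant was -4.28 ± 0.14 in cox4d ras2d, a 19.4-fold lower level (adjusted p = 8.8e-27), and -0.16 ± 0.14 in cox4d tco89d. In ras2d BTN2 was also below wt, at 83.8 and 84.1 TPM at 12 h and 68.7 and 76.4 TPM at 16 h. CUR1, the paralog of BTN2, stood at means of 54.1 TPM at 12 h and 53.6 TPM at 0 h in wt (log2 difference 0.02 ± 0.14) and did not pass in coq2d or cox4d against wt at 16 h (0.10 and -0.07). In tco89d CUR1 was higher than in wt at 16 h, with means of 169 and 36.6 TPM.

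Set against the suppressor single mutants at 16 h, the double mutants were lower in SSA4 in 5 of 6 cases. SSA1 and SSA4 were lower in coq2d ras2d than in ras2d (1.14% of all genes were lower), SSA4 in coq2d tco89d than in tco89d (1.94%), and SSA4 in cox4d rts1d than in rts1d (11.5%). SSA1, SSA2 and SSA4 were lower in cox4d ras2d than in ras2d (13.7%) and in cox4d tco89d than in tco89d (29.7%), and BTN2 was higher in cox4d tco89d (3.71% of all genes were higher). On the deposited scale, the counts lower in cox4d tco89d (3 of 9) and in cox4d rts1d (1 of 9) were near the share of all genes. In coq2d rts1d no member passed, and SSA4 came nearest (log2 difference -0.99 ± 0.14). The median of all genes in cox4d tco89d against tco89d differed by -0.73 between the deposited scale and median-ratio scaling (log2). With the second, SSA1 and SSA2 were at -0.48 and -0.29 and did not pass, with 12.1% of all genes higher and 4.87% lower. Without the library with COX4 RNA, SSA2 was at -0.85 and did not pass, while SSA1 was at -1.15, SSA4 at -2.17 and BTN2 at 1.92.

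The interaction term asks whether a suppressor deletion changed a gene differently in an ETC mutant and in wt, as the log2 difference of double mutant from ETC mutant minus that of suppressor mutant from wt, at 16 h. Of 54 gene and strain pairs 25 passed, and all 25 were negative. A negative term means that in the ETC mutant the suppressor deletion lowered the gene more, raised it less, or lowered it though it raised it in wt. The last held for SSA4 with TCO89 deleted, which was higher in tco89d than in wt but lower in coq2d tco89d and cox4d tco89d than in their ETC mutants. SSA4 passed in all 6 double mutants and BTN2 in 5, while HSP26 and HSP42 passed in none. In cox4d ras2d 7 of 9 genes passed, all but HSP26 and HSP42, where 8.15% of all genes had a negative term past the threshold, and in cox4d rts1d 6 passed, those 7 without SSA2 (4.37%). In cox4d tco89d the 4 SSA genes passed (14.2%). In the coq2d strains SSA1, SSA4 and BTN2 passed in coq2d ras2d (1.66%), SSA4 and BTN2 in coq2d rts1d (2.1%), and SSA3, SSA4 and BTN2 in coq2d tco89d (2.74%). With median-ratio scaling 5 members passed in coq2d ras2d, with SSA2 and SSA3 added (4.99% of all genes), and 4 in coq2d tco89d, with SSA1 added (5.74%). On that scale only SSA4 of the 4 SSA genes passed in cox4d tco89d (5.06%), and without the library with COX4 RNA the SSA2 term was -0.98. Without 1 library SSA1 and BTN2 in coq2d ras2d (-0.97 and -0.93) and SSA3 in coq2d tco89d (-0.86) also missed 2-fold. The 6 terms share the wt libraries, and terms of the same ETC or suppressor deletion share those too.

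**Figure D5:**
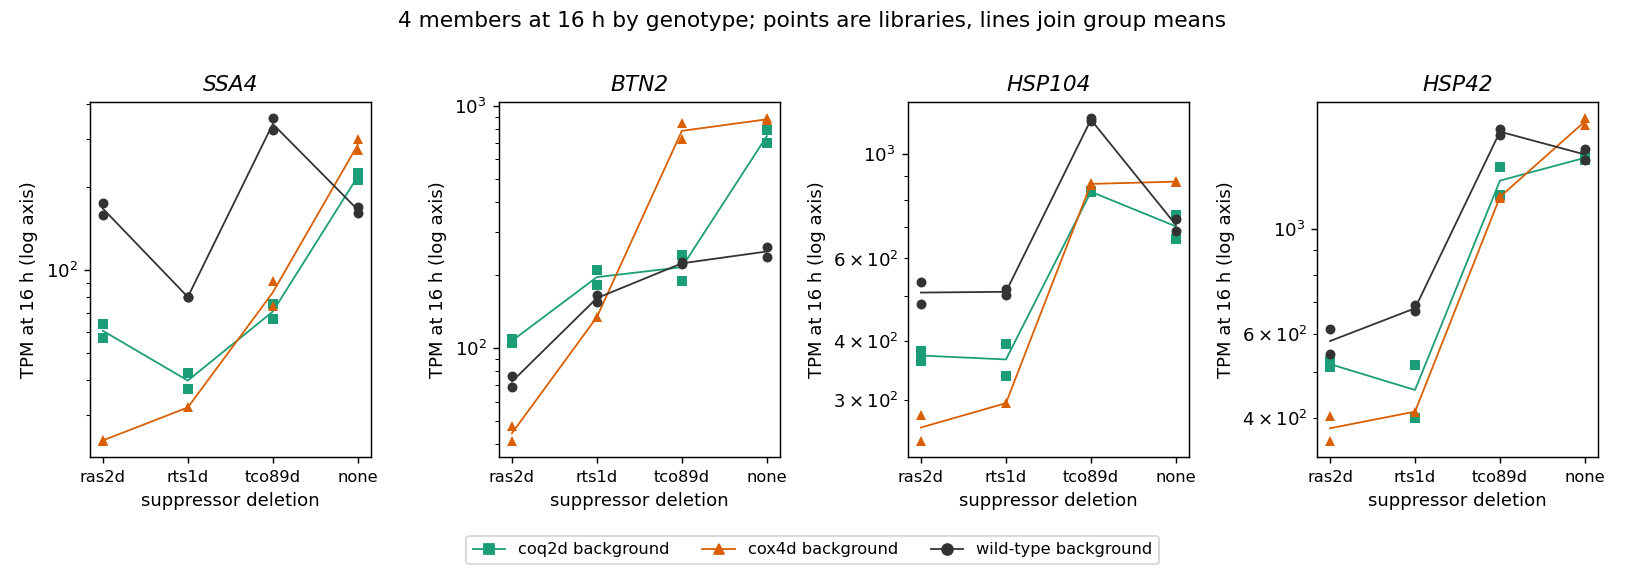
TPM at 16 h (vertical log axes) of SSA4, BTN2, HSP104 and HSP42 by suppressor deletion (horizontal axis; none means no suppressor deletion), for coq2d strains (squares), cox4d strains (triangles) and strains with both COQ2 and COX4 (circles). Points are libraries and lines join group means. SSA4 in the 6 double mutants lies at 24.0 to 91.8 TPM, below both parent strains in each case, and BTN2 in cox4d tco89d stays near cox4d.

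Other chaperones and stress genes were read in 8 lists. In wt at 12 h against 0 h, where 17.7% of all genes tested rose and 27.7% fell, the cytosolic chaperones that work on newly made proteins were lower. All 14 subunits of the chaperonin TRiC and of prefoldin fell, the largest falls being PAC10 (-2.71), GIM3 (-2.56), CCT4 (-1.93) and CCT7 (-1.90, log2 differences). Of 7 ribosome-bound chaperones 6 fell, among them the Hsp70 gene SSB1, with means of 109.5 TPM at 12 h and 980.0 TPM at 0 h. Among 9 cytosolic partners of Hsp70, the J-protein gene APJ1 (3.44), the nucleotide exchange factor genes SSE2 (3.17) and FES1 (1.62) rose and SNL1 (-2.08) fell. Among 12 genes of Hsp90 and its cochaperones, CPR6 (2.22) and STI1 (1.29) rose and PPT1, CPR7 and CNS1 fell. Of 8 mitochondrial chaperones 6 rose, led by HSP78 (2.44) and SSQ1 (2.05), and none fell. Of 9 chaperones of the endoplasmic reticulum 2 fell, below the share of all genes, SCJ1 and SIL1 (-2.15 and -1.22), and none rose. Of 8 other stress-induced genes 6 rose, led by HSP30 (10.32), HSP12 (5.40) and HSP33 (4.36). Of 8 regulators MSN4 (2.23), RPN4 and GIS1 rose and MSN2 (-1.38) fell. The median log2 difference was -1.49 over TRiC and prefoldin, -2.17 over the ribosome-bound chaperones, 1.08 over the mitochondrial chaperones and 2.96 over the other stress-induced genes, beside 3.20 over the 9 genes and -0.24 over all genes tested.

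The same lists at 16 h showed which partners were lower with the 9 genes in the cox4d double mutants. In cox4d ras2d against cox4d, where 7.15% of all genes were lower, 3 of 12 Hsp90 genes were lower, with CPR6 at means of 191 and 931 TPM, AHA1 (-1.48) and STI1 (-1.42). Of the Hsp70 partners 4 of 9 were lower, FES1 (-2.00), SSE1 (-1.69), APJ1 (-1.52) and SSE2 (-1.37). Of the mitochondrial chaperones 4 of 8 were lower (MDJ1, HSP10, HSP78 and HSP60, -1.75 to -1.52), and KAR2, the Hsp70 of the endoplasmic reticulum, was lower (-2.01) with ERO1. The ribosome-bound Hsp70 genes SSB1 (1.91) and SSB2 (1.78) were higher, and of the 8 other stress-induced genes none passed in either direction. The list medians were -0.62 for Hsp90 and cochaperones, -0.78 for the Hsp70 partners and -1.13 for the mitochondrial chaperones, beside -2.01 for the 9 genes and 0.11 for all genes. In cox4d rts1d against cox4d, where 5.03% of all genes were lower, the counts were 3 lower of 12 (CPR6, STI1 and SBA1), 4 lower of 9 (FES1, SSE2, SSE1 and APJ1) and 2 lower of 8 mitochondrial chaperones (MDJ1 and HSP10), and SSB1 and SSB2 were again higher. In cox4d tco89d against cox4d, where 9.16% of all genes were lower, TAH1 of the Hsp90 list and SSQ1 and ECM10 of the mitochondrial list were lower, and no Hsp70 partner was. In coq2d and cox4d against wt at 16 h, no gene of the Hsp90, Hsp70 partner, mitochondrial, endoplasmic reticulum or other stress-induced lists passed. MSN4 was lower in coq2d (-1.55) and cox4d (-1.15).

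Other stress-induced genes were also higher in log phase in cox4d ras2d, the strain with the most HSP26. Against cox4d at 0 h, where 6.04% of all genes were higher, 6 of 8 other stress-induced genes were higher, with HSP12 at means of 16535 and 777 TPM, HSP33 (2.46), HSP32 (1.96) and HSP31 (1.93). SSE2 (1.60), HSP78 (1.02) and MSN4 (1.36) were the only genes higher in their lists, and CNS1 (-1.04) was the only gene lower in any of the lists.

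The genes whose group means followed each member most closely over the 36 groups of strain and time are given as a description, since groups of a strain share a genotype and all groups share the time course. HSP104 had its highest Pearson correlation with SSE2 (r = 0.989) and HSP42 (0.988), and HSP42 with HSP104, SSE2 (0.982) and YJL144W (0.973). HSP82 was nearest to HSP104 (0.955), BTN2 (0.952) and HSP42 (0.949), and BTN2 to CPR6 (0.956), HSP82 and LST8 (0.939). SSA4 was nearest to SSE2 (0.937), YJR096W (0.930) and HSP104 (0.929). HSP26 was nearest to NQM1 (0.991), SIP18 (0.987) and RDL1 (0.985), SSA3 to HSP30 (0.983), YMR175W-A (0.983) and YGR201C (0.976), and SSA1 to PNC1 (0.908), GRE3 (0.897) and UGA1 (0.896). SSA2 was nearest to ERG20 (0.980), YOL057W (0.976) and MCM16 (0.971). Other members were thus among the 3 nearest genes of HSP42, HSP104, HSP82, SSA4 and BTN2, and of none of HSP26, SSA1, SSA2 and SSA3.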

How the data were processed

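RNA was purified from filtered cells, made into stranded poly(A) libraries with rRNA removal and sequenced on an Illumina HiSeq instrument, per the labels' protocols. The authors deposited TPM per gene. Salmon 0.9.1, bcl2fastq 2.20.0.422 and the build sacCer3 are named, per the submitters' processing notes, without their roles. TPM columns summed to 1000003 to 1000010, with a floor of 0.1 TPM, so depth is unknown and no counting interval is given. Both deposited tables held identical values, and one was used. Its columns name strain and time but no replicate number.

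The test took the 5766 of 5803 genes that reached 1 TPM in 2 or more libraries. limma 3.58.1 in R 4.3.3 was fitted to log2(TPM + 1), a scale that understates changes of low genes, with 1 mean per group over all 71 libraries, an intensity trend and 35 residual degrees of freedom. There were 69 comparisons: 12 h against 0 h and 16 h against 12 h in each strain, single mutants against wt, double mutants against ETC mutants, and at 16 h double mutants against suppressor mutants and the interaction. P-values were adjusted within each comparison. A call needed an adjusted p under 0.05 and a log2 difference of at least 1. Alternatives were median-ratio scaling, quantile normalization, pseudocounts of 0.1 and 5, no filter, no intensity trend, compared groups only, and leaving out each library.

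The members and lists were chosen with earlier results of these data known. Text names the 9 members, the deleted genes, at most 4 called genes per list by size plus any going the other way, HSC82, CUR1, and the 3 genes of highest correlation with each member. Motif windows and gene positions came from the RefSeq R64 genome, and identities between coding sequences from blastn 2.17.0. The 600-base window was added after seeing the data.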

Additional observations from a re-analysis of the deposited data

Results flagged for a closer look

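At 16 h, 25 interaction terms of the 9 genes, which compare the effect of a suppressor deletion between an ETC mutant and wt, passed the threshold (limma, Benjamini-Hochberg adjusted p under 0.05 over 5766 genes and at least 2-fold). Per double mutant, 1.66% to 14.2% of all genes had a negative term past the threshold and 4.13% to 14% a positive one. The labels call replicates technical, so the p-values cover the spread between such libraries only. All values are log2 terms, and each of the 25 is negative. SSA4 had terms of -3.52 in cox4d ras2d, -2.80 in cox4d tco89d and -2.08 in cox4d rts1d. In the coq2d strains SSA4 had -2.64 in coq2d tco89d, -1.86 in coq2d ras2d and -1.39 in coq2d rts1d. BTN2 had -2.51 in cox4d ras2d, -2.07 in cox4d rts1d, -1.64 in coq2d tco89d, -1.29 in coq2d rts1d and -1.02 in coq2d ras2d. SSA1 had -2.36 in cox4d ras2d, -1.41 in cox4d tco89d, -1.12 in cox4d rts1d and -1.03 in coq2d ras2d. SSA2 had -1.89 in cox4d ras2d and -1.18 in cox4d tco89d, where one library held COX4 RNA. SSA3 had -1.86 in cox4d ras2d, -1.37 in cox4d tco89d, -1.10 in cox4d rts1d and -1.10 in coq2d tco89d. HSP82 had -1.75 in cox4d ras2d and -1.29 in cox4d rts1d, and HSP104 had -1.26 and -1.09 in the same strains. The adjusted p-values lay between 1.5e-20 (SSA1, cox4d ras2d) and 0.00060 (SSA3, cox4d rts1d). The cox4d rts1d terms rest on 1 library of that strain. With median-ratio scaling SSA1, SSA2 and SSA3 in cox4d tco89d were at -0.96, -0.74 and -0.92 and did not pass. Without 1 library SSA1 and BTN2 in coq2d ras2d (-0.97 and -0.93) and SSA3 in coq2d tco89d (-0.86) missed 2-fold. So did SSA2 in cox4d tco89d without the library with COX4 RNA (-0.98).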

How the results depend on the processing

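No paired analysis was possible because the columns carry no replicate number. No member call reversed under any alternative run. Of 240 calls, 11 missed the threshold with median-ratio scaling, 8 with quantile normalization and 4 with a pseudocount of 5, and none did with a pseudocount of 0.1, no filter, no intensity trend or, for the 222 calls in groups of 2 libraries, the compared groups only. Leaving out 1 library gave 33 misses among 1024 recomputed calls. The number of members that rose between 12 and 16 h, 2 over all strains, ranged from 1 to 2 when libraries were left out. All other counts of calls per kind of comparison stayed within 1.5 times their value: with median-ratio scaling 96 in place of 93 rises at 12 h, 28 in place of 23 falls at 16 h against 12 h, 40 in place of 36 lower in double than in ETC mutants, and 25 negative interactions on both scales (34 with quantile normalization). The 25 interactions were not the same set on the 2 scales. With median-ratio scaling SSA1, SSA2 and SSA3 in cox4d tco89d dropped out. SSA2 and SSA3 in coq2d ras2d and SSA1 in coq2d tco89d came in. The shift between the deposited and the median-ratio scale in the median of all genes ran from -0.73 to 0.45 on the log2 scale. Depth is unknown, so no limit of detection is given.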
